A study of Mus musculus with 8 samples.

Results

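T cells recognize peptides through a receptor whose chains are carried to the cell surface by the CD3 proteins, and the genes that build, regulate and mark these cells were examined in the pancreas of NOD mice. The list holds 32 genes, which were measured by 53 of the 34850 probes that carry a gene symbol on the arrays (21597 symbols). The probes were found by gene symbol, older names of the same gene included, and the brightest probe of a gene is the one reported unless another is named. By role, the list splits into 12 genes of T cell receptor signaling, 9 co-receptors and other surface receptors, 6 regulatory genes and 5 genes of memory and naive T cells.

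The study asked how the pancreas of the NOD mouse, which develops autoimmune diabetes, differs before hyperglycemia from that of a congenic strain that is not prone to the disease. RNA from the whole pancreas of 8 female NOD mice, 12 weeks old, was labeled red (Cy5), and each mouse was hybridized to its own two-color array. The green (Cy3) partner on every array was the same pool of pancreas RNA from 8 NOD.B10 mice of the same age, a strain with the NOD background and a different H2 (major histocompatibility) haplotype. There were no treatments, and the pool gives no spread between NOD.B10 mice. Red was the NOD mouse on every array, so for any one gene an effect of dye and an effect of strain cannot be told apart. None of the 53 probes is placed on chromosome 17, which carries H2.

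In a T cell, binding of peptide leads the kinase Lck to phosphorylate the CD3 chains. The kinase Zap70 then binds to these chains, and the adaptors Lat and Lcp2 carry the signal on. CD4 and CD8 are the co-receptors for MHC class II and class I and mark helper and cytotoxic T cells. Transcription factors set the further fate, such as Tbx21 (T-bet) in type 1 helper cells, Gata3 in type 2 helper cells and Foxp3 in regulatory cells. In NOD mice, T cells enter the islets of Langerhans as part of insulitis, and they make up a small part of the pancreas as a whole.

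Values are log2 ratios of red over green and are positive where the NOD mouse is higher. Between 21.6% and 35.3% of the spots per array were well above background in red, and 57.6% to 60.7% were in green. Where a dye gave no signal over its background, the deposited data hold a stand-in value, and the deposited ratio was set to 0 in 27.8% to 37.9% of spots. The arrays came on 2 slides (mice 1 to 4 on the first, mice 5 to 8 on the other), and the grids of replicates 5, 6 and 7 were not rated good by the software. The median log2 ratio over the 18396 genes tested was -0.08. In whole tissue, more T cells and more RNA per T cell cannot be told apart.

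*Tbx21*, the factor of type 1 helper T cells and natural killer cells, was higher in the pancreas of all 8 NOD mice, 3.55-fold in the mean. With normexp background correction and loess, another way to make the ratio that compresses weak signals, its mean was 0.32 (log2), below 2-fold, and no member was called. *Cd3e*, a chain of the CD3 complex, was higher by 1.52-fold, also in all 8 mice. It no longer passed 0.01 once any 1 mouse was left out (adjusted p 0.0119 to 0.023, limma). A weaker *Cd3e* probe had a ratio of 0 in all 8 mice. *Cd3d*, *Lck* and *Cd5* had means of 2.07, 2.30 and 1.32 (log2) and were above the pool in 7 of 8 mice each, but their adjusted p-values of 0.0101, 0.0128 and 0.0133 (limma) fell just outside the threshold of 0.01. With slide as a covariate *Cd3d* and *Cd5* were called (adjusted p = 0.00803 and 0.00918, limma) and *Lck* was not (0.0123). The co-receptor genes *Cd4* and *Cd8a* had mean log2 ratios of 0.19 and -0.12 at their brightest probes, while a weaker *Cd8a* probe had a mean of 1.39. No member was lower in NOD mice at this threshold.

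Of the 32 genes, 29 passed the minimum signal (25 or more in red on 4 or more arrays, processed signal) at their brightest probe, and *Sh2d1a*, *Ctla4* and *Bcl11b* did not. Calls required both a 2-fold change and an adjusted p below 0.01, and 1 of the 29 members, *Tbx21*, was called higher (3.45%). Among all 18396 genes tested, 0.391% were called higher and 1.3% lower, and 0 members were called lower. At an unadjusted p below 0.05, 11 of 29 members were higher and 0 lower, compared to 10.9% of all genes that were higher and 25.1% that were lower. Without the fold minimum, 2 of 29 members were higher at an adjusted p below 0.01 (6.90%), compared to 3.31% of all genes, and 0 were lower, compared to 4.83%. These same 2 genes, *Tbx21* and *Cd3e*, were above 0 in all 8 mice, as were 5.07% of all genes. At an adjusted p below 0.05 the count was 5 of 29 (17.2%), compared to 7.01% of all genes. The members' mean log2 ratio was at least 1 for 6 of 29 (20.7%), compared to 0.94% of all genes tested, and above 0 for 22 of 29 (75.9%), compared to 36.5%.

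Red stood well above background on 4 or more arrays for 9 of the 32 genes, compared to 51.9% of all genes tested. Among these is *Cd8b1*, by a probe placed on chromosome 5, while its other probe is placed on chromosome 6. For 16 of the 32 genes red was well above background on no array. The signal minimum reads the red, NOD, dye only, so that a gene could pass through the NOD signal alone, and the counts over the 29 genes are a description. The median over the 29 was 0.41, and over all 32 it was 0.36.

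**Figure D1:**
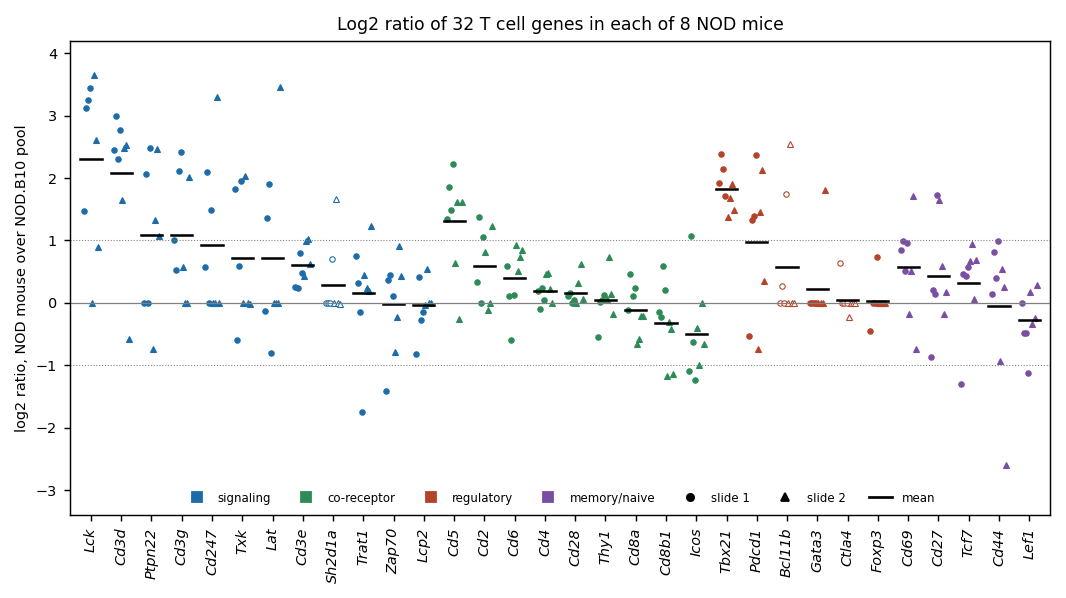
Log2 ratio of the NOD mouse over the NOD.B10 pool (y axis) at the brightest probe of each of the 32 T cell genes (x axis), 1 point per mouse, circles for slide 1 and triangles for slide 2. Bars are means of 8 mice, colors are roles, open points are the 3 genes that did not pass the signal minimum, and dotted lines mark 2-fold. The 8 points of *Tbx21* lie between 1.38 and 2.39, while 7 points of *Cd3d* lie above 1.65 and mouse 8 lies at -0.58.

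The stretches upstream of the 5 genes with an adjusted p below 0.05 are shown because these are the members that differed most clearly from the pool. Each runs 5′ to 3′ over the 250 bases before the start of the gene in RefSeq on GRCm38.p6, the build of the sequences and not of the probe positions. *Lck* has 2 starts in RefSeq, and both are given. Capitals mark matches, on either strand, to a short letter pattern of each of 6 families of transcription factors. The pattern was GGAAGT for the ETS family and TGTGGT for the RUNX family. It was AGATAA for the family of Gata3, and CTTTGA for the family of Tcf7 and Lef1. For the T-box family of Tbx21 the letters GGTGTGA were searched, and for the factors that bind an E-box the letters CAGGTG.
*Tbx21*, chr11:97115332-97115581, - strand: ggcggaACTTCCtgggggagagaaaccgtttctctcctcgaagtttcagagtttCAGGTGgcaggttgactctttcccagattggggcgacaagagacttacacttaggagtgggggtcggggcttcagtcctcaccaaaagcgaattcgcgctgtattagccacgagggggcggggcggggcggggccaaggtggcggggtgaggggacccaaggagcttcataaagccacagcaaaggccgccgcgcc
*Cd3e*, chr9:45009612-45009861, - strand: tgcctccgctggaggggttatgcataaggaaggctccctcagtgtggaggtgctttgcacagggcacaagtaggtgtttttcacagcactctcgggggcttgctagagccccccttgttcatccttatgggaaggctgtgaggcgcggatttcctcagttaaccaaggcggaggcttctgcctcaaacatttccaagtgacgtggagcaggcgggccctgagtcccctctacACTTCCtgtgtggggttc
*Cd3d*, chr9:44981536-44981785, + strand: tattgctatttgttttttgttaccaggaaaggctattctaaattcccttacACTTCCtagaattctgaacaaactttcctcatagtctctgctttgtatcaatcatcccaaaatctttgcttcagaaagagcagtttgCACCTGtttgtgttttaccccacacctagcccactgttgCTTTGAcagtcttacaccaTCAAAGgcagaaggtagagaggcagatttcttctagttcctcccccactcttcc
*Lck*, distal, chr4:129573642-129573891, - strand: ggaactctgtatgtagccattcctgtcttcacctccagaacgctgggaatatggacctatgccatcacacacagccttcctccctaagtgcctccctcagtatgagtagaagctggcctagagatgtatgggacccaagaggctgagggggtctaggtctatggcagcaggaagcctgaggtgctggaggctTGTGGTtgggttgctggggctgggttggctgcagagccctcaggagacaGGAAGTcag
*Lck*, proximal, chr4:129558373-129558622, - strand: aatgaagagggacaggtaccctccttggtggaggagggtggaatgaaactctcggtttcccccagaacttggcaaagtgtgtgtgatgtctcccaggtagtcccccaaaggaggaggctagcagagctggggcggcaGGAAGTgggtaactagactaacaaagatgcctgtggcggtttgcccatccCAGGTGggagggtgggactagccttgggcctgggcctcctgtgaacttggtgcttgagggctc
*Cd5*, chr19:10738975-10739224, - strand: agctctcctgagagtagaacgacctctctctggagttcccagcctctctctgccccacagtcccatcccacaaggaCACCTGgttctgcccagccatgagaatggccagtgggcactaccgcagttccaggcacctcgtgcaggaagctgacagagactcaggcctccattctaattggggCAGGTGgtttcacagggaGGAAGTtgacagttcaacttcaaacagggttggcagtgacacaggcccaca

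All 6 stretches hold the ETS letters GGAAGT or their complement, which are found in 19.7% of 32851 mouse promoters of the same length and in 14 of the 33 RefSeq entries of the 23 members that have one (42.4%). The match of *Cd3e* begins 18 bases before the start and that of the distal *Lck* start begins 9 bases before it, while that of *Tbx21* begins 244 bases before it. The E-box letters CAGGTG were found upstream of *Tbx21*, *Cd3d*, *Cd5* and the proximal start of *Lck* and are in 17.2% of all promoters. The stretch of *Cd3d* holds the TCF and LEF letters on both strands (13.8% of all promoters), and the distal start of *Lck* holds the RUNX letters (14.0%). The letters of the Gata3 (9.99%) and T-box (3.33%) families were not in these windows, and no match overlaps another. In the 33 entries of members, the E-box letters were in 27.3% and the TCF and LEF letters in 21.2%. The RUNX letters were in 15.2% of these entries, those of the Gata3 family in 15.2% and the T-box letters in 3.03%. These matches describe the letters only.

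*Tbx21* was measured by 1 probe, placed by the arrays' annotation at chr11:96914193-96914252 on mm8. Its log2 ratio was 1.93, 2.39, 2.15 and 1.71 in mice 1 to 4 and 1.38, 1.68, 1.91 and 1.49 in mice 5 to 8. The mean was 1.83 ± 0.34 (SD, n = 8), with an adjusted p of 0.000305 (limma) and an exact two-sided sign-flip p of 0.00781, the smallest that 8 arrays allow. The lowest mouse was thus still 1.38 above the pool on the log2 scale, and the means of the slides were 2.04 and 1.61. Red signals were 125 to 213 in the NOD mice and green signals 33.1 to 55.0 in the pool, in arbitrary intensity units, with no overlap. Red was well above background on 5 arrays and green on 8, and no signal of this probe was a stand-in value. Red signals also lay above green ones at the brightest *Cd28* probe, where red held stand-in values on all 8 arrays. There red was 19.2 to 53.1 and green 9.96 to 16.3, so a gap without overlap does not by itself show a difference. *Tbx21* was called on each of the 8 sets of 7 mice (adjusted p 0.000839 to 0.0018, limma). Without replicates 5, 6 and 7 its mean was 1.93, and its adjusted p of 0.0118 (limma) no longer passed, in a fit that called 0.0163% of all genes higher.

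Among the signaling genes, *Cd3e* gave the brightest signal of the list, with mean processed signals of 7238 in red and 4652 in green. Its log2 ratios ran from 0.25 over a median of 0.55 to 1.03, and those of all 8 mice were above 0. The mean was 0.61 ± 0.31 (SD, n = 8; adjusted p = 0.00762, limma; exact sign-flip p = 0.00781). Slide 1 averaged 0.45 and slide 2 0.77. *Cd3e* no longer passed 0.01 once any 1 of the 8 mice was left out (adjusted p 0.0119 to 0.023, limma), while the mean stayed between 0.55 and 0.66. The second *Cd3e* probe, 4730 bases away on chromosome 9, had a ratio of 0 in all 8 mice, with stand-in values in red on all 8 arrays. The brightness of a probe depends on its sequence as well as on its transcript, so that the probes of different genes do not rank their levels.

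*Cd3d*, the delta chain of the same complex, reached 2.44, 2.99, 2.31 and 2.77 in mice 1 to 4 and 1.65, 2.48 and 2.52 in mice 5 to 7, but was -0.58 in mouse 8. Mouse 8 stood apart from the other mice, whose values did not go below 1.65. The mean was 2.07 ± 1.14 (SD, n = 8; adjusted p = 0.0101, limma; exact sign-flip p = 0.0156), and without mouse 8 it was 2.45 with an adjusted p of 0.000824. Without any other 1 mouse the adjusted p was 0.0221 to 0.0305 (limma). The mean was 2.07 with processed signals, 2.45 with median-centered signals and 0.22 with normexp and loess (adjusted p = 0.0017, 5.49e-07 and 0.0535, limma). Red stood well above background on 3 arrays and green on 5.

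*Lck*, the kinase that starts the signal, had log2 ratios of 1.47, 3.12, 3.24 and 3.44 in mice 1 to 4 and of 0, 3.64, 2.62 and 0.90 in mice 5 to 8. With the deposited ratios this was the highest mean of the list, 2.30 ± 1.35 (SD, n = 8; adjusted p = 0.0128, limma; exact sign-flip p = 0.0156). The red signals ran from 42.0 to 331 and the green signals from 18.5 to 38.6, and the ratio of 0 in mouse 5 rests on a stand-in value. Without mouse 5 the adjusted p of *Lck* was 0.00776 (limma) and its mean 2.63. Without any other 1 mouse the adjusted p was 0.0164 to 0.0355 (limma). The mean was 2.36 with processed signals, 2.70 with median-centered signals and 0.26 with normexp and loess (adjusted p = 0.00131, 9.27e-07 and 0.0354, limma). With normexp and loess *Cd3e* (0.54) and *Tbx21* (0.32) had higher means.

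Of the other 9 signaling genes, 8 were tested and none passed an adjusted p of 0.01 with the deposited ratios. *Cd3g*, the gamma chain of CD3, had a mean of 1.08 and the phosphatase *Ptpn22*, which dampens receptor signaling, a mean of 1.08. *Cd247*, the zeta chain, had a mean of 0.93, the kinase *Txk* and the adaptor *Lat* had means of 0.72 each, and the adaptor *Sh2d1a*, not tested, a mean of 0.29. *Trat1*, which stabilizes the receptor complex, had a mean of 0.16, the kinase *Zap70* one of -0.02 and the adaptor *Lcp2* one of -0.04. Their SDs between mice ran from 0.42 for *Lcp2* to 1.41 for *Lat*, and red was well above background on 3 arrays for *Trat1*, 2 for *Cd3g*, 1 for *Zap70* and none for the others. Several of these means depended on how the ratio was made. With the ratio of processed signals *Cd247* had a mean of 1.73 and *Cd3g* one of 1.16 (adjusted p = 0.00263 and 0.00901, limma). With median-centered signals *Cd247* reached 1.93, *Txk* 1.76 and *Ptpn22* 2.52 (adjusted p = 1.31e-05, 0.000112 and 6.36e-07, limma), while *Zap70* was at -0.87 (adjusted p = 0.0294). With normexp and loess the means of *Cd247*, *Cd3g*, *Txk*, *Ptpn22* and *Lat* were 0.10 or less. *Lat* had a mean of 0.33 without mouse 8, *Cd247* one of 0.59 without mouse 7, and *Trat1* one of 0.43 without mouse 4 and of 0.0092 without mouse 8. The signaling group as a whole had a median of 0.72 over the 11 genes tested, with 1 of 11 higher at an adjusted p below 0.01, compared to 3.31% of all genes.

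Among the co-receptors and surface receptors, *Cd5*, an inhibitory receptor of T cells and of some B cells, had the highest mean with the deposited ratios. Its log2 ratios were 1.34, 1.85, 1.48 and 2.22 in mice 1 to 4 and 0.65, 1.62, -0.26 and 1.62 in mice 5 to 8. Mouse 7 was below the pool and the other 7 mice were above it. The mean was 1.32 ± 0.78 (SD, n = 8; adjusted p = 0.0133, limma; exact sign-flip p = 0.0156), and without mouse 7 it was 1.54 with an adjusted p of 0.00402. Without any other 1 mouse the adjusted p was 0.0208 to 0.0364 (limma). The mean was 1.32 with processed signals, 0.82 with median-centered signals and 0.16 with normexp and loess (adjusted p = 0.00285, 0.0577 and 0.204, limma). Red signals of *Cd5* were 105 to 494 and green signals 84.9 to 136.

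*Cd4*, the co-receptor of helper T cells, was printed in 10 spots per array, and its log2 ratio ran from -0.10 over a median of 0.20 to 0.48. The mean was 0.19 ± 0.21 (SD, n = 8), 6 of 8 mice were higher, and the adjusted p was 0.106 (limma; exact sign-flip p = 0.0469). *Cd8a*, the alpha chain of the co-receptor of cytotoxic T cells, also has a probe in 10 spots, with a mean of -0.12 and 3 of 8 mice higher (adjusted p = 0.547, limma). Its mean was 0.18 on slide 1 and -0.42 on slide 2. One of its 2 single-spot probes had ratios of 3.42, 4.17 and 3.53 in mice 2, 4 and 7 and of 0 in the others, and the other had a mean of 0.04. The probes of *Cd8a* therefore gave means of -0.12, 1.39 and 0.04, and red was well above background on 3, 1 and 0 arrays. For the beta chain *Cd8b1* the brighter probe is placed on chromosome 5 (chr5:115404420-115404479, mm8) and the other on chromosome 6 (chr6:71266583-71266641), near the *Cd8a* probes. The brighter one ran from -1.16 over -0.26 to 0.59 with a mean of -0.33 (adjusted p = 0.309, limma; exact sign-flip p = 0.188; slide means 0.11 and -0.76), and the one on chromosome 6 had a mean of 0.00. With median-centered signals the brighter probe had a mean of -1.09 (adjusted p = 0.0147, limma). Its red passed the background mark on 7 arrays, and that of the chromosome 6 probe on 0. By these placements the brighter probe may not measure *Cd8b1*, which was not tested. The counts and medians of the list nevertheless use it for this gene.

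*Cd6*, a receptor related to *Cd5*, and *Thy1*, a surface protein of T cells that other cells such as neurons and fibroblasts also carry, gave red and green signals well above background on each of the 8 arrays. *Cd6* ran from -0.59 over 0.55 to 0.93, with a mean of 0.41 ± 0.50 (SD, n = 8; adjusted p = 0.137, limma; exact sign-flip p = 0.0469). Its second probe, with red well above background on no array, had a mean of -1.14 (adjusted p = 0.0235, limma), the opposite direction, and the mean of the brighter probe itself was -0.06 with normexp and loess and -0.08 with median-centered signals. *Thy1* ran from -0.55 over 0.05 to 0.74, with a mean of 0.05 ± 0.36 (SD, n = 8; adjusted p = 0.818, limma; exact sign-flip p = 0.609), and slide means of -0.089 and 0.19. Of the other receptors, the adhesion receptor *Cd2* had a mean of 0.59, the costimulatory receptor *Cd28* one of 0.17 and the costimulatory receptor *Icos* one of -0.49, with adjusted p-values of 0.0825, 0.157 and 0.217 (limma). With median-centered signals *Cd2* was called, with a mean of 1.16 (adjusted p = 0.00218, limma), and with normexp and loess its mean was 0.039. The red signal of *Cd28* held stand-in values on all 8 arrays, and its mean was 1.09 with the ratio of processed signals and 2.23 with median-centered signals (adjusted p = 0.00103 and 6.24e-07, limma). The group's median was 0.17 over 9 genes, and 0 of 9 passed an adjusted p of 0.01, with 4 at an unadjusted p below 0.05, all of them higher. Of all genes tested, 3.31% were higher at the first threshold and 10.9% at the other.

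**Figure D2:**
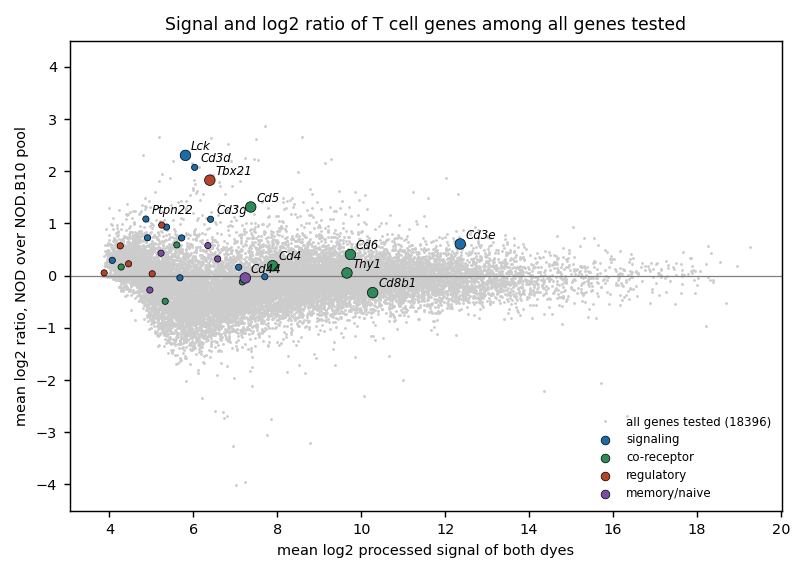
Mean log2 ratio (y axis) against the mean log2 processed signal of both dyes (x axis) for the 18396 genes tested (grey) and the 32 T cell genes (colored by role, large where red stood well above background on 4 or more arrays). *Lck*, *Cd3d*, *Tbx21* and *Cd5* lie above 1 at low signals, and *Cd3e*, with the highest signal of the list, lies at 0.61.

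The regulatory genes other than *Tbx21* had weak signals. The inhibitory receptor *Pdcd1* (PD-1) had a mean of 0.97 ± 1.16 (SD, n = 8; adjusted p = 0.125, limma), with 6 of 8 mice higher. *Bcl11b*, which keeps the T cell lineage, had a mean of 0.57 and the inhibitory receptor *Ctla4* one of 0.05, and neither was tested. *Gata3* had a ratio of 0 in 7 mice and of 1.81 in mouse 8, and *Foxp3* had a ratio of 0 in 6 mice, -0.45 in mouse 1 and 0.73 in mouse 4. Red was well above background on no array for these 5 genes. The values of *Pdcd1*, *Gata3* and *Foxp3* depended on how the ratio was made. *Pdcd1* had a mean of 2.12 with median-centered signals (adjusted p = 8.43e-06, limma) and of 0.14 with normexp and loess (adjusted p = 0.0861). With the ratio of processed signals *Gata3* had a mean of 1.5 (adjusted p = 0.00124, limma) and *Foxp3* one of 1.52 (adjusted p = 0.0271), and with median-centered signals the means were 2.25 and 1.83 (adjusted p = 9.88e-07 and 0.000127), in fits that called 10.5% and 17.8% of all genes higher.

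Among the genes of memory and naive T cells, *Cd44*, an adhesion receptor that effector and memory T cells and many other cells carry, ran from -2.60 over 0.33 to 0.99. Mouse 8 was the lowest, and the mean was -0.04 ± 1.18 (SD, n = 8; adjusted p = 0.996, limma; exact sign-flip p = 0.961). The slides averaged 0.59 and -0.68. A *Cd44* probe in 10 spots had a mean of 0.30 and a further probe one of 0.46. The early activation marker *Cd69* had a mean of 0.58, the costimulatory receptor *Cd27* one of 0.43 and the factors *Tcf7* and *Lef1* of naive and memory cells means of 0.32 and -0.28. No gene of this group passed an adjusted p of 0.05, and 0 of 5 had an unadjusted p below 0.05, compared to 7.01% and 10.9% of all genes that were higher and 14.4% and 25.1% that were lower. Without mouse 1 the mean of *Tcf7* was 0.55 (adjusted p = 0.0164, limma), and without mouse 4 those of *Cd27* and *Lef1* were 0.24 and -0.15. With median-centered signals *Cd27*, *Cd69* and *Lef1* were called, with means of 1.46, 1.2 and 1.19 (adjusted p = 0.000205, 0.000797 and 0.00821, limma), as were 17.8% of all genes. The 2 probes of *Tcf7* (0.32 and -0.25) and the 3 of *Lef1* (-0.28, 0.47 and 0.97) differed in sign.

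**Figure D3:**
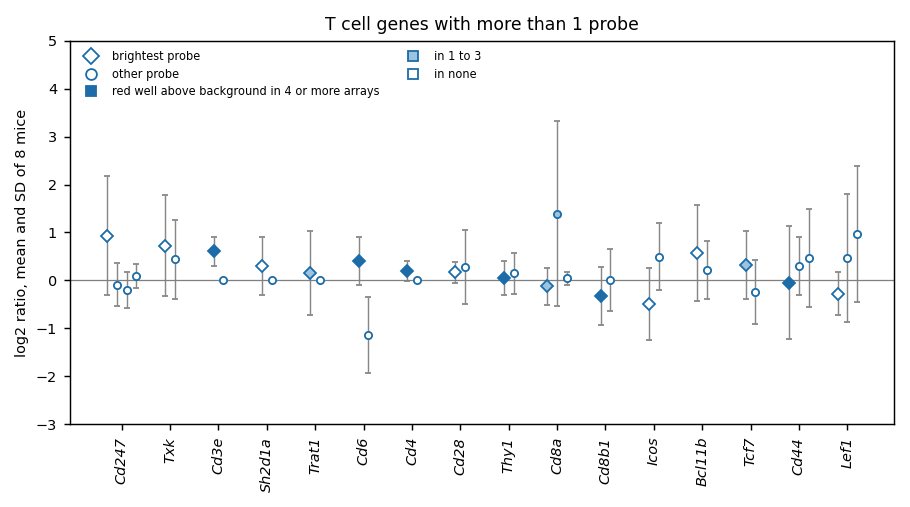
Log2 ratio, mean and SD of 8 mice (y axis), at every probe of the 16 T cell genes with more than 1 probe (x axis). Diamonds are the brightest probe of a gene and circles the others, and the fill shows on how many arrays red was well above background. *Cd6* at 0.41 and -1.14 and *Cd8a* at -0.12 and 1.39 have probes on opposite sides of 0.

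Over these 16 genes there were 21 other probes, of which 14 passed the signal minimum. Among those, 0 passed an adjusted p of 0.01 (limma), compared to 1.07% higher and 3.59% lower among all 9709 tested probes that were not the brightest of their gene. Among the 14, 0 had red well above background on 4 or more arrays, and 4 of the 21 other probes had a ratio of 0 in all 8 mice. The call of *Tbx21* and the values of *Cd3d*, *Lck* and *Cd5* each rest on a single probe.

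Mice differed in how many T cell genes were above the pool. The number of the 29 members above 0 ran from 13 in mouse 5 to 23 in mice 2 and 4, and the number at or above 1 ran from 3 in mouse 5 to 11 in mouse 4. Of all genes tested, 32.3% to 36.7% per mouse were above 0 and 3.14% to 4.87% were at or above 1. The median log2 ratio of the members was 0.11, 0.46, 0.24 and 0.58 in mice 1 to 4 and 0, 0.51, 0.14 and 0.28 in mice 5 to 8, while the median of all genes lay between -0.03 and 0. No mouse had a negative median, and mouse 5 lay at 0. Red signal of the members' brightest probes was well above background for 12 or 13 genes in mice 2, 4 and 6 and for 4 to 10 genes in the others, and the share of all spots with red well above background was also highest in mouse 2 and lowest in mouse 8. The part of this difference in signal between arrays in the members' values was not tested.

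The receptor chains themselves, which are not among the 32 genes, were given by 6 symbols, 5 of them tested at their brightest probe, with a median of 0.24. The chain listed as *Tcrb-V13*, of the beta chain, was the 1 of 5 that was higher at an adjusted p below 0.01 (3.31% of all genes were), with a log2 ratio of 0.42 to 1.53 and a mean of 0.99 (adjusted p = 0.00254, limma; exact sign-flip p = 0.00781) and red well above background on 8 arrays. This probe is placed at chr6:41477864-41477923 (mm8), and probes nearby had means of 1.06 and 0.90. A *Tcrb-V13* probe at chr6:41071176-41071235, with red well above background on no array, had a mean of -1.30 (adjusted p = 0.00470, limma). The alpha chain *Tcra* had a mean of 2.07, with 7 of 8 mice higher and red well above background on 5 arrays (adjusted p = 0.0176, limma). A *Tcra* probe in 10 spots had a mean of 1.67, with 8 of 8 mice higher and red well above background on 2 arrays (adjusted p = 0.0515, limma). The weakest *Tcra* probe had a mean of 0.25. The gamma chain *Tcrg* had a mean of 0.24 and did not pass the test, *Tcrb-J* had a mean of 0.15 with 1 mouse higher and 3 lower, and *Tcrg-V2* had a ratio of 0 in all 8 mice.

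Of 27 other genes of receptor signaling, 26 were tested, and 1 rose and 1 fell at an adjusted p below 0.01, compared to 3.31% of all genes that rose and 4.83% that fell. The actin regulator *Was*, expressed in blood cells at large, was higher with a mean of 1.48 (adjusted p = 0.000478, limma), and *Nfatc1*, a calcium-dependent factor of many tissues, was lower with a mean of -0.39 (adjusted p = 0.000478, limma). Among 19 activation and homing receptors tested, *Tnfrsf4* (OX40) was higher with a mean of 0.34 (adjusted p = 0.00281, limma) and *Klf2*, a factor of quiescent T cells and of endothelium, was lower with a mean of -0.53 (adjusted p = 0.00644, limma). *Was* also passed the 2-fold minimum, so that 1 of these 26 genes was called higher, compared to 0.391% of all genes. Without that minimum, single genes that pass in lists of this size are near the share of all genes. The medians of these lists were 0.06 and 0.12, compared to 0.41 for the T cell genes and -0.08 for all genes.

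Markers of other cells were counted in the same fit, in which, of all genes, 3.31% were higher and 4.83% lower at an adjusted p below 0.01, and 10.9% and 25.1% at an unadjusted p below 0.05. Of 11 B cell genes tested 0 passed an adjusted p of 0.01 (3 at an unadjusted p below 0.05, all higher), and of 7 cytotoxic genes 0 (2, higher). Of 10 myeloid genes 0 passed (1, higher), and their medians were 0.12, 0.46 and 0.16 in this order. Lymph node stroma had 0 of 7 past 0.01, with a median of -0.06, 4 of 7 means below 0, and medians per mouse from -0.99 to 0.78. At an unadjusted p below 0.05, 2 of its genes were higher and 1 lower, *Chst4*, with a mean of -0.84 (adjusted p = 0.0481, limma). Its *Ccl19*, a chemokine that attracts T cells, had a mean of 1.32 (adjusted p = 0.0109, limma), *Glycam1* had red well above background on 1 array and *Madcam1* on none. Of 6 thymocyte genes 5 were tested, and 1, *Dntt*, was higher (mean 0.78, adjusted p = 0.00510, limma), while *Rag1*, *Rag2* and *Ptcra* had red well above background on no array. The median of the thymocyte genes was -0.05, and at an unadjusted p below 0.05 there were 1 higher and 2 lower, the lowest being *Cd1d1* at -0.96 (adjusted p = 0.0291, limma). For acinar genes 0 of 9 passed, their median was 0.05, and 2 were higher at an unadjusted p below 0.05. For adipocyte genes 0 of 6 passed, all 6 means were below 0 with a median of -0.79, and 3 were lower at an unadjusted p below 0.05. The adipocyte medians ranged from -2.76 to 0.37 between mice. The part of these cells in the T cell values was not tested.

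**Figure D4:**
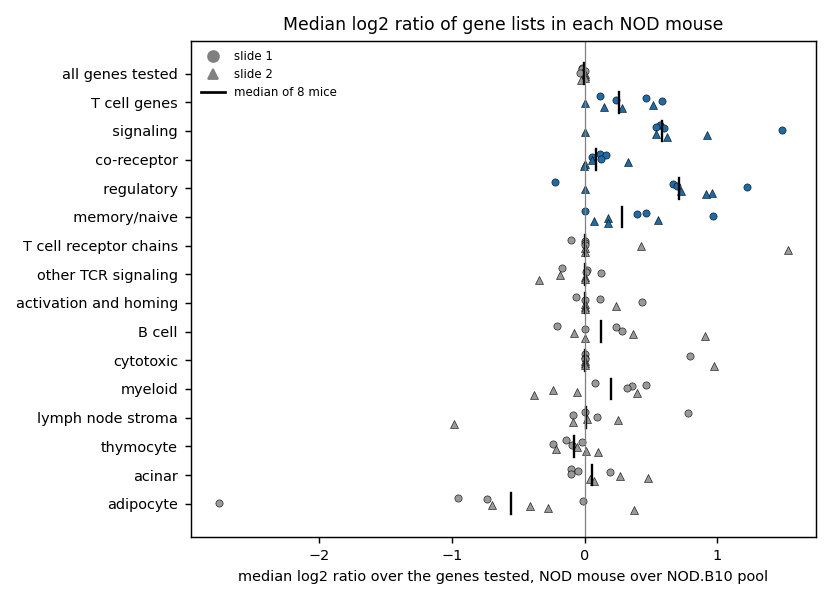
Median log2 ratio over the genes tested of each list (x axis) in each of the 8 NOD mice, circles for slide 1 and triangles for slide 2, with black bars for the median of the mice (y axis, lists, the T cell genes and their roles in blue). The T cell genes lie between 0 and 0.58, and the adipocyte genes reach -2.76 in 1 mouse.

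How the ratio is made from the signals moved these values. The deposited ratio holds 0 at spots with a stand-in value in both dyes and at some with one in red alone, while the ratio of the deposited processed signals keeps a value there. With that ratio 8 of 29 members were called higher, compared to 10.5% of all genes, and with background-subtracted signals centered on each array's median 14 of 29, compared to 17.8% of all genes. With normexp background correction and loess, which compresses ratios of weak signals, 0 of 29 were called at 2-fold (0.234% of all genes higher). *Tbx21* had means of 1.83, 2.49 and 0.32 under these alternatives and an adjusted p of 0.00529 (limma) under the last. *Cd3e*, whose signal is bright, had means of 0.61, 0.62 and 0.54, but its adjusted p of 0.0111 with centered signals and of 0.0148 with normexp and loess (limma) no longer passed 0.01. The centered signals shifted the median of all probes tested from -0.09 to 0.09.

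**Figure D5:**
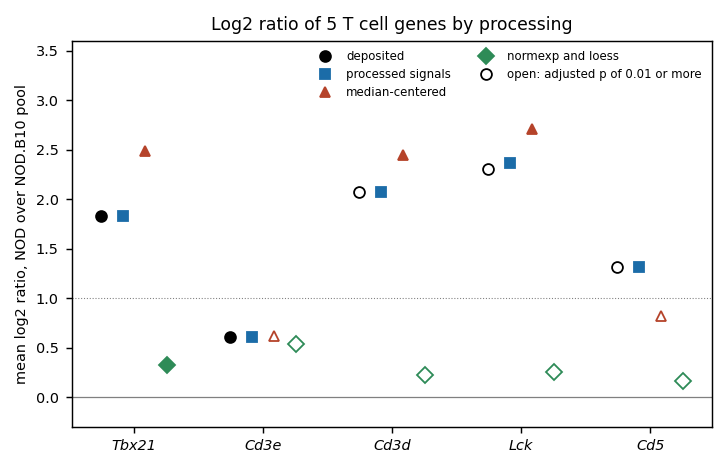
Mean log2 ratio of 8 mice (y axis) of 5 T cell genes (x axis) from the deposited ratios, the ratio of processed signals, median-centered signals, and normexp with loess. Filled symbols passed an adjusted p of 0.01, and the dotted line marks 2-fold. The value of *Cd3e* lies between 0.54 and 0.62, while *Tbx21*, *Cd3d*, *Lck* and *Cd5* lie at 0.16 to 0.32 with normexp and loess.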

How the data were processed

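Pancreas RNA of 8 NOD mice was compared, each on its own two-color Agilent array, with a pool of 8 NOD.B10 mice. Probe positions are on mm8. The authors used Agilent Feature Extraction (10.7.3.1) to make the files. The deposited value of a spot is a log10 ratio (red over green). Each dye also has a deposited processed signal, which is an intensity corrected for background, surface trend and dye bias. Flags for signals well above background and for stand-in values are also deposited.

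Ratios were converted to log2, and a probe's spots were averaged. The 28105 probes with a symbol and 25 or more in red (processed signal) on 4 or more arrays were tested against 0 with limma (3.58.1, R 4.3.3), a one-sample moderated test with Benjamini-Hochberg adjustment over all of them. Calls need 2-fold and an adjusted p below 0.01. Per gene the brightest probe, by mean log2 signal of both dyes, is reported, which left 18396 genes tested. Members given by mouse also have the exact test over all 256 sign flips, two-sided. The tests were first run on simulated data. Tables and figures used Python 3.11.15 with pandas 2.3.3, numpy 2.4.6 and matplotlib 3.10.9.

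The members and lists were chosen with earlier results of these data known, so lists are given as counts and medians. All 32 members are named. Every value, or the lowest, median and highest of the 8 mice, is given for the 9 with red well above background on 4 or more arrays or an adjusted p below 0.01, and beyond this rule for *Cd3d* and single values of other genes, chosen after they were seen. Of other lists, genes with an adjusted p below 0.01 are named, and *Tcra*, *Tcrg*, *Tcrb-J*, *Tcrg-V2*, *Ccl19*, *Chst4*, *Cd1d1*, *Glycam1*, *Madcam1*, *Rag1*, *Rag2* and *Ptcra* were added. Of the genes in these lists, *Tigit*, *Ccl21a*, *Ccl21c* and *Amy2* were not matched to a probe. The replicates are separate mice. The number of arrays limits the precision.

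The alternatives tried were an unmoderated one-sample statistic, dropping the signal minimum, red well above background on 4 or more arrays, normexp (offset 50) with loess, median-centered signals, the ratio of processed signals, slide as a covariate, an adjusted p of 0.05, a fold of 1.5, any probe of a gene, and each mouse left out. Leaving out the 3 arrays whose grid was not rated good was added after the data were seen.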

Additional observations from a re-analysis of the deposited data

Results flagged for a closer look

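In each of the 29 T cell genes tested, the mouse farthest from the others was set against the range of the 8 mice (Dixon's test at its 95% critical value), and 5 genes had a mouse that stood apart. Chance flags about 1 in 20 genes, a rate that does not apply to *Gata3* and *Foxp3*, where a deposited ratio of 0 in 7 and in 6 mice fixes which mouse stands apart. *Cd3d* was -0.58 in mouse 8, while the other 7 mice ran from 1.65 to 2.99. *Gata3* was 1.81 in mouse 8 and 0 in the others. *Trat1* was -1.75 in mouse 4, compared to -0.15 to 1.23 in the others, and *Foxp3* was 0.73 in the same mouse, compared to -0.45 to 0. *Tcf7* was -1.30 in mouse 1, compared to 0.07 to 0.95 in the others. In these 5 cases the red signal of that mouse was not well above background, and the part of the weak signal in these values was not tested.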

How the results depend on the processing

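Members called higher were 1 (*Tbx21*) with the deposited ratios, and 3 among genes with red well above background on 4 or more arrays (*Cd5*, *Lck*, *Tbx21*), 0 with normexp and loess, 14 with median-centered signals, 8 with the ratio of processed signals, 3 with slide as a covariate (*Cd3d*, *Cd5*, *Tbx21*), 4 at an adjusted p of 0.05, 2 at a fold of 1.5, and 0 without the arrays whose grid was not rated good. Of all genes, 0.391% were called higher, and in the same order 0.828%, 0.234%, 17.8%, 10.5%, 0.478%, 0.669%, 1.43% and 0.0163%. Without 1 mouse in turn the count was 1 to 2, *Lck* being added without mouse 5, *Cd5* without mouse 7 and *Cd3d* without mouse 8. In these fits 0.228% to 0.337% of all genes were called higher. *Tbx21* was among the called genes in every setting with a call. Members higher without the fold minimum were 2, and 1 with the plain statistic, 1 without the signal minimum, 4 where red was well above background, 1 with normexp and loess, 14 with median-centered signals, 9 with processed signals, 4 with slide as a covariate, 5 at an adjusted p of 0.05, 0 without the arrays whose grid was not rated good, and 1 to 2 without 1 mouse. Of all genes tested, 3.31% were higher in this way, and in the same order 2.42%, 2.5%, 7.02%, 0.962%, 20.4%, 13.6%, 4.41%, 7.01% and 0.141% up to the setting without those arrays. Without 1 mouse the share was 1.7% to 2.76%. No member was called lower in these settings. Of all genes, 1.3% were called lower with the deposited ratios, 0.0978% with normexp and loess and 5.09% with median-centered signals. The median of the members, 0.41, was 0.047 with normexp and loess and 1.16 with median-centered signals, and it was 0.27 to 0.54 without 1 mouse. The cause of these changes was not tested.

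Among members that did not pass the test, some changed sign. With normexp and loess these were *Lcp2* (0.0083), *Trat1* (-0.037), *Cd8a* (0.017), *Cd6* (-0.058), *Foxp3* (-0.047), *Gata3* (-0.017), *Cd44* (0.17) and *Lef1* (0.040). With median-centered signals these were *Lcp2* (0.26), *Trat1* (-0.029), *Cd8a* (0.010), *Cd6* (-0.082), *Icos* (0.34), *Cd44* (0.58) and *Lef1* (1.19), and with processed signals *Lcp2* (0.066). At another probe these were *Cd247* (-0.088), *Cd8a* (1.39 and 0.040), *Cd6* (-1.14), *Icos* (0.50), *Cd44* (0.30 and 0.46), *Tcf7* (-0.25) and *Lef1* (0.47). Without the arrays whose grid was not rated good these were *Cd8a* (0.098) and *Thy1* (-0.11). Without 1 mouse, *Zap70* ran from -0.15 to 0.18, *Lcp2* from -0.12 to 0.070, *Thy1* from -0.048 to 0.14, *Foxp3* from -0.065 to 0.10 and *Cd44* from -0.19 to 0.32. The means of 15 of the 29 tested members moved by over 1.5 times without 1 mouse, those named here or above and *Cd8a* (-0.20 without mouse 2, -0.044 without mouse 5, -0.054 without mouse 6), *Cd8b1* (-0.21 without mouse 5 and without mouse 8), *Cd28* (0.10 without mouse 7), *Cd27* (0.26 without mouse 5) and *Gata3* (0 without mouse 8). Between slides 1 and 2 the means differed in sign for 8 members, *Cd8a*, *Cd8b1*, *Thy1* and *Cd44* as given above, *Trat1* (-0.20 and 0.53), *Zap70* (-0.13 and 0.085), *Lcp2* (-0.21 and 0.13) and *Ctla4* (0.16 and -0.055). Probes 3 of *Cd247* (-0.20) and *Lef1* (0.97) also had the other sign. Of 491 values of single members under an alternative, 45 had the opposite sign to the deposited ratios. No paired analysis was possible because all 8 samples form 1 group. Red signals near background limit most of the list, since 9 of the 32 genes had red well above background on 4 or more arrays and 16 had it on none.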

Other observations

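Although every array carried the same pool, its signal at the brightest *Cd3e* probe ran from 2353 to 7777. The SD of its log2 green signal was 0.67, larger than at 98.4% of 19892 probes with green well above background on all 8 arrays, whose median was 0.21. Red rose and fell with it, so that the SD of the log2 ratio was 0.31, smaller than that of either dye. *Trat1* had a green SD of 0.67 as well, while *Tbx21* had 0.26 and *Thy1* 0.19.

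Repeat spots show how far a single spot of a weak T cell gene can be read. Over the 10 spots of one array, the median SD of the log2 ratio was 0.32 for *Cd4*, 0.64 for *Cd8a*, 0.45 for *Cd28* and 0.63 for *Cd44*. The SD between mice of the spot means was 0.21, 0.39, 0.21 and 0.60 in the same order. A mean of 10 spots is by its making less variable than a single spot, and *Tbx21*, *Cd3d*, *Lck* and *Cd5* have 1 spot each.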
